A study of Mus musculus with 6 samples.

Results

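The genes described here are the transcription factor gene Atf4, its stress effectors Ddit3 and Trib3, and enzymes of serine and asparagine synthesis and of the mitochondrial steps beside them (Asns, Psat1, Phgdh, Psph, Pck2, Shmt2 and Mthfd2). They were taken by symbol, as the brightest array row that carries only that symbol, and all 10 were found among 22180 genes with a row of their own. Each had 1 row on the array and no row shared with another symbol. Dim genes, with an average below the median of all rows (6.15 on the log2 scale), were not tested, and all 10 members were bright enough to be among the 12212 that were.

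RNA came from wild-type BV2 cells, an established mouse microglial cell line, on 6 Affymetrix gene arrays. In the group Tel+LPS (3 arrays) the cells had telmisartan, an angiotensin receptor blocker that also partially activates PPARG, for 2 h and then bacterial lipopolysaccharide (LPS) for 1 h. The group Tel+GW+LPS (3 arrays) also received GW9662, which blocks PPARG irreversibly. Both groups therefore carry telmisartan and LPS, with 3 h of treatment in all, of which LPS was present for 1 h. By their treatment labels they differ only in the antagonist, and no value below measures telmisartan or LPS. The labels give no doses and do not say whether the arrays of a group came from separate cultures, so the spread behind each p-value may be partly technical. In bulk RNA, a change in a share of the cells and a change in every cell cannot be told apart.

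ATF4 is the main transcription factor of the integrated stress response. Stress kinases phosphorylate the initiation factor eIF2, most translation slows, and the Atf4 message is translated more, so its control lies largely outside its own transcript level. ATF4 then pairs with C/EBP proteins at composite elements in target genes. One arm of its targets, such as CHOP (Ddit3) and the pseudokinase TRB3 (Trib3), tunes survival and damps the response, while another supplies amino acids and one-carbon units. In macrophage-like cells, serine made from glucose feeds glutathione and the methylation cycle during activation.

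With GW9662, all 10 genes had a higher mean log2 level than without it, where 41.2% of all genes tested did. The size was unequal. Trib3 was 1.38-fold higher, Pck2 1.16-fold, and the other 8 genes 1.03-fold to 1.08-fold. No member passed an adjusted p of 0.05 in limma (Benjamini-Hochberg over all 12212 genes), a threshold that 5 genes, or 0.0409%, passed (0.0246% upward and 0.0164% downward). At an unadjusted p under 0.05 there were 2 members, Trib3 and Pck2, beside 4.45% of all genes in either direction and 1.66% on the higher side. In 5 members (Trib3, Pck2, Psph, Shmt2 and Mthfd2) the 3 arrays with GW9662 all lay above the 3 without it, a pattern found for 4.01% of all genes, and in none did they all lie below (5.36% of all genes). The median difference was 0.09 on the log2 scale over the members and -0.02 over all genes tested.

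**Figure D1:**
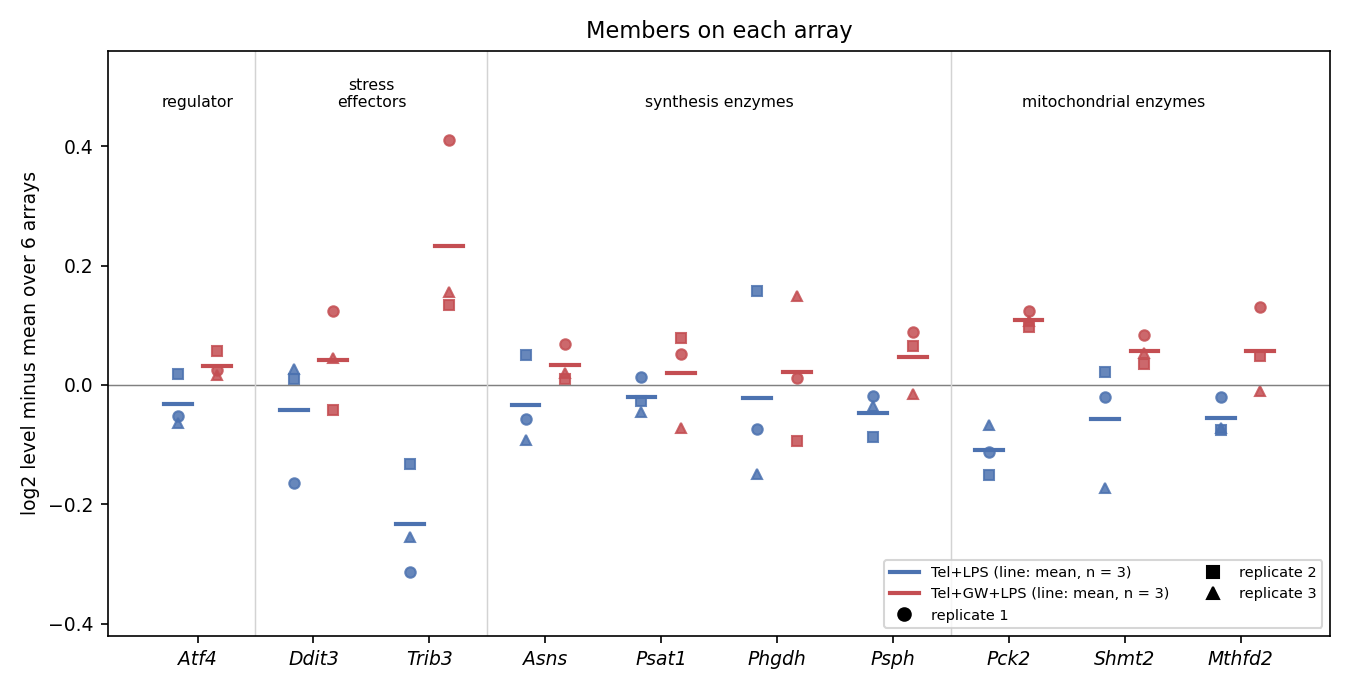
Log2 level of each gene on each of the 6 arrays, minus the gene's own mean over the arrays, in blue for Tel+LPS and red for Tel+GW+LPS. Horizontal bars are group means (n = 3), and symbols give the replicate number. Trib3 and Pck2 show the widest gaps between groups, while Phgdh spreads widely within both.

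Trib3 encodes a pseudokinase that binds AKT and also restrains ATF4 itself. Its log2 level (probe set 17392925) was 8.92, 9.10 and 8.98 on the arrays without GW9662 and 9.64, 9.37 and 9.39 on those with it. The lowest array with the antagonist thus stood above the highest without it, and replicate 1 with GW9662 stood above its companions. The difference was 0.47 ± 0.09 (SE) on the log2 scale, with a 95% interval of 0.26 to 0.68, or 1.19-fold to 1.60-fold. Among all genes tested it ranked 10th by positive difference and 32nd by p (unadjusted p = 0.000887, limma adjusted p = 0.339). Without replicate 1 of Tel+GW+LPS the difference was 0.38.

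Ddit3 encodes CHOP, a C/EBP-family factor that promotes cell death under lasting stress and activates Trib3. Its log2 level (probe set 17237978) was 7.82, 8.00 and 8.01 without GW9662 and 8.11, 7.94 and 8.03 with it. The groups overlapped, since 1 array with the antagonist lay below 2 arrays without it. The difference was 0.08 ± 0.08 (SE; interval -0.10 to 0.27; limma adjusted p = 0.994). It came to 0.02 without replicate 1 of Tel+LPS, the lowest of the 6 arrays for this gene, and to 0.04 without replicate 1 of Tel+GW+LPS. It was larger, 0.13, without replicate 2 of Tel+GW+LPS and 0.16 without both that array and replicate 3 of Tel+LPS. With array weights it was 0.20 (unadjusted p = 0.0118, limma adjusted p = 0.201). That setting put the largest weight, 5.74, on replicate 1 of Tel+LPS, the lowest array for Ddit3. It also gave 2013 of 12212 genes an unadjusted limma p under 0.05, against 543 without weights. The intervals of Ddit3 and Trib3 overlapped, at up to 1.20-fold and from 1.19-fold, and the difference between the genes was not tested.

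The Atf4 transcript (probe set 17313100) lay at 10.95, 11.02 and 10.94 without GW9662 and 11.03, 11.06 and 11.02 with it. The groups met at a single array, replicate 2 of Tel+LPS, which stood just above the lowest array with the antagonist. The difference was 0.07 ± 0.06 (SE; interval -0.07 to 0.20; limma adjusted p = 0.994), so a rise of Atf4 mRNA beyond 1.15-fold lies outside the interval. These arrays measure no protein.

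**Figure D2:**
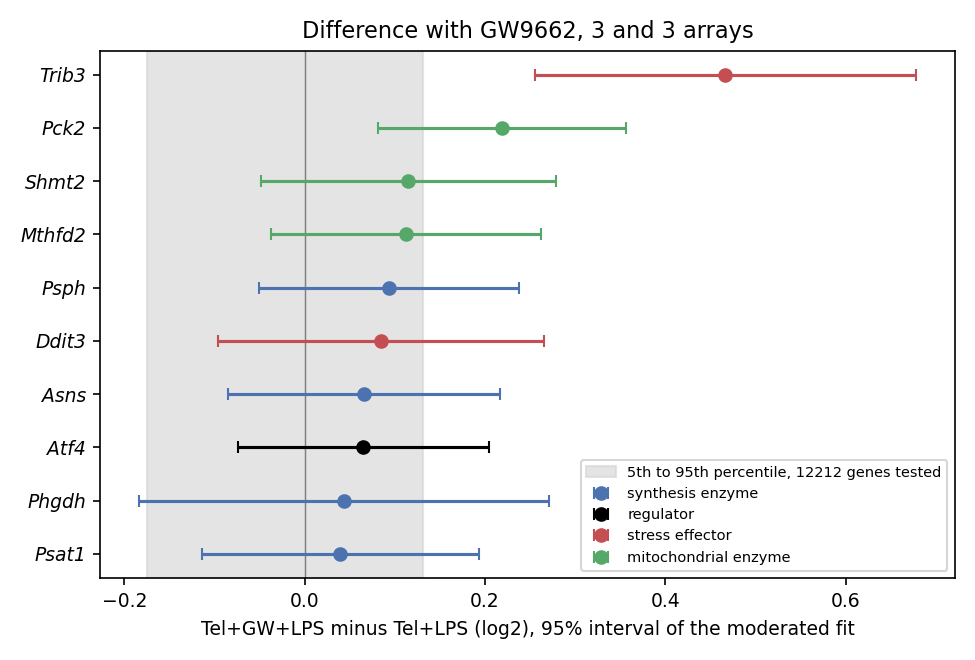
Difference of each gene, Tel+GW+LPS minus Tel+LPS on the log2 scale, with the 95% interval of the moderated limma fit (3 and 3 arrays), coloured by role and ordered by size. The grey band spans the 5th to 95th percentile of all 12212 genes tested (-0.17 to 0.13). Trib3 and Pck2 lie outside the band, and the other 8 genes lie inside it.

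Asparagine synthetase, Asns, makes asparagine from aspartate with glutamine as the nitrogen donor and is a classical ATF4 target. Its log2 level (probe set 17464718) was 11.32, 11.43 and 11.29 without GW9662 and 11.45, 11.39 and 11.40 with it. Replicate 2 of Tel+LPS lay above 2 of the 3 arrays with the antagonist. The difference was 0.07 ± 0.07 (SE), and its interval of -0.09 to 0.22 leaves out a rise beyond 1.16-fold. Without replicate 2 of Tel+LPS the difference was 0.11, and without replicate 3 it was 0.04.

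The serine enzymes act in sequence on a glycolytic intermediate. Phgdh, the dehydrogenase that commits it to serine, lay at 10.16, 10.39 and 10.08 without GW9662 and 10.24, 10.14 and 10.38 with it (probe set 17408273). Its arrays were interleaved, and its SD within groups, 0.14 pooled over both, was the widest of the 10 members. The difference was 0.04 ± 0.10 (SE; interval -0.18 to 0.27), and it was -0.02 without replicate 3 of either group. The aminotransferase gene Psat1 (probe set 17363204) lay at 11.28, 11.24 and 11.22 without the antagonist and 11.32, 11.35 and 11.20 with it. Its highest and its lowest array both came from the group with GW9662, and the difference was 0.04 ± 0.07 (SE; interval -0.11 to 0.19). It was 0.0099 without replicate 2 and 0.09 without replicate 3 of Tel+GW+LPS.

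Psph, the phosphatase of the last step to serine, was the synthesis enzyme with no overlap. It lay at 8.77, 8.70 and 8.76 without GW9662 and 8.88, 8.86 and 8.78 with it (probe set 17453124). The gap between the groups was narrow, at 8.77 against 8.78 in the nearest arrays. The difference was 0.09 ± 0.06 (SE; interval -0.05 to 0.24; limma adjusted p = 0.994). Over the 4 synthesis enzymes the intervals ended between 0.19 and 0.27, where that of Trib3 began at 0.26, and differences between genes were not tested.

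In all 3 mitochondrial enzymes the arrays with GW9662 lay above those without it, a pattern found for 4.01% of all genes tested. Shmt2 overlapped when the arrays were centred on their medians. Pck2, which makes phosphoenolpyruvate from oxaloacetate inside mitochondria, lay at 10.25, 10.21 and 10.29 without GW9662 and 10.49, 10.46 and 10.47 with it (probe set 17300504). Its SD pooled over both groups, 0.031, was the smallest of the 10 members. The difference was 0.22 ± 0.06 (SE), with an interval of 0.08 to 0.36 or 1.06-fold to 1.28-fold. By p it ranked 89th among all genes (unadjusted p = 0.00617, limma adjusted p = 0.823).

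Shmt2, the mitochondrial hydroxymethyltransferase that splits serine into glycine and a folate-bound carbon, lay at 12.01, 12.05 and 11.86 without GW9662 and 12.11, 12.06 and 12.08 with it (probe set 17245902). Its nearest arrays differed by little, and replicate 3 of Tel+LPS was the low one. The difference was 0.11 ± 0.07 (SE; interval -0.05 to 0.28), and 0.06 without that array. Mthfd2, which oxidises the carbon unit carried from SHMT2, lay at 11.23, 11.17 and 11.18 without the antagonist and 11.38, 11.30 and 11.24 with it (probe set 17468143). The difference was 0.11 ± 0.07 (SE; interval -0.04 to 0.26; limma adjusted p = 0.994 for both genes), and 0.07 without replicate 1 of Tel+GW+LPS.

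Set by role, the stress effectors differed by more than the synthesis enzymes, and that contrast came from Trib3. The mean difference was 0.28 over Ddit3 and Trib3, 0.06 over the 4 synthesis enzymes and 0.15 over the 3 mitochondrial enzymes. The mean of the effectors minus the mean of the synthesis enzymes, after centring each gene on its overall mean, was -0.21, -0.08 and -0.03 on the arrays without GW9662 and 0.21, 0.03 and 0.08 on those with it. No array of one group crossed into the other, and the contrast between groups was 0.22. With Ddit3 alone as the effector, an alternative chosen after seeing the data, the contrast was 0.024. No p is given for these means, since the members were chosen with results of these data known.

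**Figure D3:**
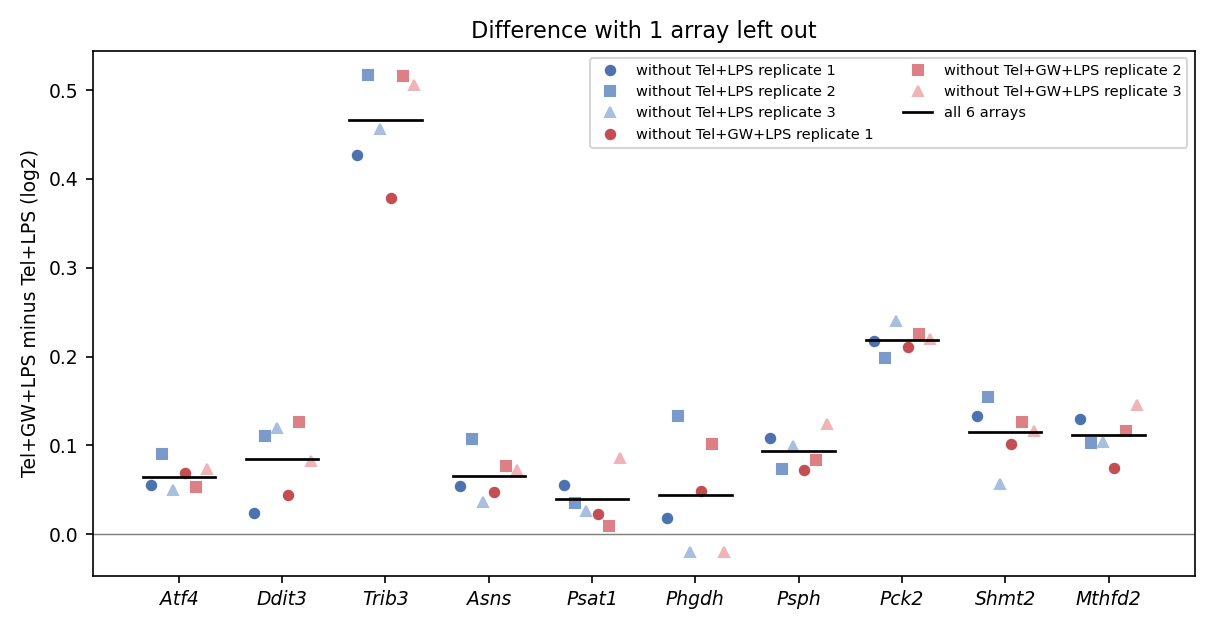
Difference of each gene (log2) when 1 array is left out, with the removed array shown by colour and symbol and the value from all 6 arrays as a black bar. Trib3 stays between 0.38 and 0.52 and Pck2 between 0.20 and 0.24, while Phgdh crosses 0.

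Members were also compared array by array. Replicate 1 of Tel+GW+LPS held the highest value of its group in 7 of 10 members, while it did so for 24.2% of all genes tested. Replicate 3 of Tel+LPS held the lowest value of its group in 5 members, beside 35.4% of all genes, and replicate 2 of Tel+GW+LPS in 6, beside 33.3%, from which nothing is read about the members. Over all genes, these last 2 arrays had the only positive scores on the first principal component (42.8% of the variance), 14.6 and 7.55. The other 4 ran from -8.15 to -0.98, so only replicate 3 of Tel+LPS lay farther from 0 than every other array. Without both arrays of positive score, 9 of 10 members were positive (42.2% of all genes). Trib3 then differed by 0.51 and Pck2 by 0.25, and Psat1 stood at -0.0030. The part of these 2 arrays in the results was not tested further. Of 10 microglial markers, 8 passed the level filter. Among them Cd68, Itgam and Ptprc lay at 12.89, 10.79 and 11.06, and Aif1, C1qa and Cx3cr1 nearer the cut-off, at 6.86, 6.90 and 7.02. The resting-microglia markers P2ry12 and Tmem119 lay below the filter, at 5.82 and 6.06. None of the 8 passed the limma test (1 at an unadjusted p under 0.05, beside 4.45% of all genes tested), with differences of -0.20 to 0.09. Of 20 markers of other brain cells, fibroblasts and lymphocytes, 12 passed the filter, none passed the test (0 at an unadjusted p under 0.05), and their differences ran from -0.34 to 0.07. The neuronal marker Syn1, at 8.52, lay above Aif1, C1qa and Cx3cr1. Passing the filter does not show identity, since 12212 of 22180 genes passed it.

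Promoter sequence is shown for Trib3, Asns and Pck2 because each holds a core of the composite element that ATF4 binds with C/EBP proteins. Their differences ranged from 0.07 to 0.47. The letters TGATGNAA were searched on both strands (TTNCATCA on the other) in the 300 bases around each RefSeq start, 250 before and 50 after (GRCm38.p6). All 10 members had an entry, and 3 held a match, while 4.51% of the 27025 genes in the table did (3.97% of 32851 promoters). Because the members were chosen around ATF4, comparing these shares is no test of the element. Capitals mark the match.
Trib3, chr2:152344011-152344310, minus strand: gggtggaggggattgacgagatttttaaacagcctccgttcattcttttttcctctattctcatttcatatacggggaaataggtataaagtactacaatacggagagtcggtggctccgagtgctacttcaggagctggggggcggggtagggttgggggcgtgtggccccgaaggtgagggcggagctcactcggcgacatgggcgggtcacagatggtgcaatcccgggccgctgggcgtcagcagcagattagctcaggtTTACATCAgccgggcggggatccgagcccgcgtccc
Asns, chr6:7693160-7693459, minus strand: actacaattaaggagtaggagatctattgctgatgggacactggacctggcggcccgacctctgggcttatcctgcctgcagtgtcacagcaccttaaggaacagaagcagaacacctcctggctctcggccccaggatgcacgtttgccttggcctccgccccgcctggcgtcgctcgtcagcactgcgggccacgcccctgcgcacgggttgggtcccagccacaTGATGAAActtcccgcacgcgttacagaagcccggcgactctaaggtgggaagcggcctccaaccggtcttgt
Pck2, chr14:55540016-55540315, plus strand: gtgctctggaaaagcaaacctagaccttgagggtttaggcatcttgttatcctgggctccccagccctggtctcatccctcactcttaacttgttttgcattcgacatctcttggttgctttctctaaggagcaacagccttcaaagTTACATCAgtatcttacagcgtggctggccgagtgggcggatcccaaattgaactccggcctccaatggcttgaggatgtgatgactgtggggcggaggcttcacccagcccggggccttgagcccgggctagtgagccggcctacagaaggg
Counted from the start site, the match spans bases 14 to 21 in Trib3, -23 to -16 in Asns and -103 to -96 in Pck2. In Trib3 and Pck2 it is the same 8 letters, TTACATCA, and in Asns it reads TGATGAAA on the gene's own strand. The Pck2 promoter was added after its values were seen. A looser form, TGNTGNAA, which includes every match of the first and was also chosen after the sequences were seen, matched in 14.8% of all promoters and in 5 members. It added Phgdh and Psat1, and a further match, TGGTGCAA, in both Trib3 and Psat1. TGGTGCAA spans bases -33 to -26 in Trib3, which differed by 0.47, and -136 to -129 in Psat1, which differed by 0.04. Trib3 also holds TTACATCA, which Psat1 lacks. A link between these matches and the differences was not tested. The other 5 members held neither form in this window.

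The rest of the pathway was described from 5 lists, chosen like the members with earlier results known. Among other stress targets of ATF4, 1 of 9 tested genes passed, upward (0.0246% of all genes tested). Of the 9 differences, 8 were positive (41.2% of all genes), with a median of 0.11. The gene that passed was Slc7a11, the cystine importer (probe set 17405082), at 9.72, 9.51 and 9.89 without GW9662 and 11.10, 10.80 and 10.67 with it. Its difference of 1.15 ± 0.13 (SE; limma adjusted p = 0.0453) was lost as a call when any one of the 6 arrays was left out. Chac1, which degrades glutathione, lay at 8.39, 8.45 and 8.33 without the antagonist and 8.77, 8.73 and 8.77 with it, a difference of 0.37 ± 0.06 (SE; limma adjusted p = 0.207). The groups did not overlap in 4 of the 9, all on the higher side, a pattern found for 4.01% of all genes tested. Besides Slc7a11 and Chac1 these were the stress-induced mTOR inhibitors Sesn2 (0.19) and Ddit4 (0.12). Sesn2 and Ddit4 are named here after their values were seen.

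Upstream of ATF4, none of 12 tested genes for eIF2 kinases and their inhibitor, eIF2B subunits and eIF2 phosphatase regulators passed in limma (1 at an unadjusted p under 0.05). Of these, 8 were positive, and the median was 0.01. Over all genes tested, 4.45% had an unadjusted limma p under 0.05 and 41.2% were positive. In 2 of the 12 the groups did not overlap, both on the lower side (5.36% of all genes). Eif2ak2, the kinase PKR that senses double-stranded RNA and is induced by interferon, was the one with the smallest p, at -0.22 ± 0.07 (SE; limma adjusted p = 0.947). Dnajc3, which encodes an inhibitor of such kinases, differed by -0.21 ± 0.11. Among ATF and C/EBP factors, none of 7 passed (3 at an unadjusted p under 0.05) and 6 were positive, with a median of 0.11. Jdp2, a repressor of the AP-1 and ATF family, differed by 0.22 ± 0.07, and Atf5, a relative of ATF4 translated under the same control, by 0.23 ± 0.08. The largest difference of this list ran the other way: Cebpd, a C/EBP factor of the acute inflammatory response, differed by -0.25 ± 0.10 (unadjusted p = 0.0293, limma adjusted p = 0.994), and is named after its values were seen. Of the 7, 3 had groups that did not overlap on the higher side (4.01% of all genes), Jdp2 and Atf5 among them. On the lower side it was 1, Cebpd (5.36% of all genes).

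The neighbouring metabolic genes centred near 0. In the one-carbon and glycine cycle, none of 12 genes passed (1 at an unadjusted p under 0.05), 6 were positive, and the median was -0.0050. Over all genes tested, 4.45% had an unadjusted limma p under 0.05 and 41.2% were positive. Groups did not overlap in 1 of the 12, Aldh1l2, on the higher side (4.01% of all genes). Aldh1l2, the mitochondrial formyl-folate dehydrogenase, differed by 0.25 ± 0.09, and Mthfd2l, a close relative of Mthfd2, by -0.21 ± 0.10. Among other amino acid synthesis genes, none of 13 passed (2 at an unadjusted p under 0.05), 7 were positive and the median was 0.0056. In 2 of the 13, Gpt2 and Aldh18a1, the groups did not overlap, again on the higher side. The mitochondrial alanine aminotransferase gene Gpt2 differed by 0.20 ± 0.07, and Aldh18a1, which starts proline synthesis, by 0.16 ± 0.06. The 9 genes named from the lists other than the stress targets had limma adjusted p from 0.947 to 0.994.

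**Figure D4:**
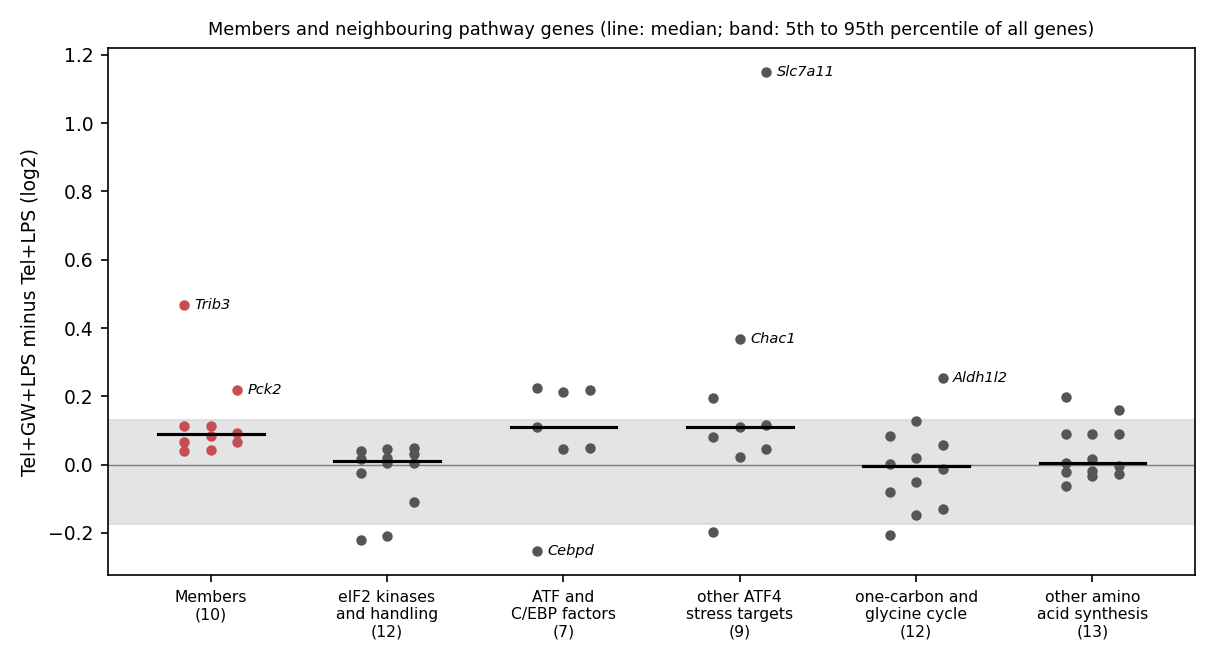
Differences (log2, Tel+GW+LPS minus Tel+LPS) of the members in red and of 5 neighbouring lists in grey, with the number of genes tested below each name. Black bars are medians and the band spans the 5th to 95th percentile of all genes tested. Slc7a11, Chac1 and Trib3 stand highest, and the one-carbon and amino acid synthesis lists centre near 0.

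Likeness of pattern was measured over the 6 arrays as the root mean square difference between profiles, each relative to its gene's mean. Closest to Trib3 were B430306N03Rik (0.08), Gclm, the modifier subunit gene of glutathione synthesis (0.09), and the kinase gene Pkn3 (0.09), where the Trib3 profile itself had a root mean square of 0.26. Their own differences were 0.50, 0.42 and 0.38, and none passed. The closest profiles to Atf4 were Guk1, Atpif1 and Tbc1d20 (each 0.01), to Ddit3 Tnnt3, Rasgrp4 and Ltbp2 (0.02 to 0.03), and to Asns Rpl19, Relb and Puf60 (each 0.02). No other member was among these. Many genes lay nearer to each profile than its own root mean square: 412 for Atf4, 1076 for Ddit3, 3443 for Trib3 and 898 for Asns. Shared control of the named genes was not tested.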

How the data were processed

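The authors deposited log2 values, which the submitters' processing notes credit to Expression Console and RMA. Background correction, quantile normalization of the 6 arrays and median polish were run with engine version 1.4.1.46, per the file headers. Quantile normalization hides any shift shared by most genes. Array design differs between sources, with a later mouse gene array in the headers than in the labelling protocol; the headers were followed.

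Of 41345 rows, 23521 carried 1 gene symbol in the platform annotation, 1820 several and 16004 none. Only rows with 1 symbol were used. The test was limma 3.58.1 under R 4.3.3, with lmFit and eBayes and no covariate. Differences are Tel+GW+LPS minus Tel+LPS. In 1 simulated data set of 12212 genes for this comparison, 50 genes each were changed by 0.25, 0.5, 1 and 2 (log2) at once. Noise was drawn for each gene separately. The calls held 5 of 50 genes changed by 0.25, 35 of 50 changed by 0.5, 46 of 50 changed by 1 and 7 unchanged genes. Adjusted p depends on how many genes change, and only 5 genes passed on the arrays themselves. These rates may therefore overstate what the comparison can call. The number of arrays limits the precision.

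Members, lists and roles were chosen with earlier results of these data known. The members are all named. From each other list, genes past the threshold are named, or else those with the 2 smallest p, and Chac1 in any case. List symbols were matched to older names through RefSeq identifiers, and those with no row of their own were not used. The closest 3 profiles are named for Atf4, Ddit3, Trib3 and Asns. No dates or slides are labelled, so no batch was tested. The running numbers in the sample titles follow the groups, all of Tel+LPS before all of Tel+GW+LPS. An effect of that order and one of GW9662 cannot be told apart.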

Additional observations from a re-analysis of the deposited data

How the results depend on the processing

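The count of genes past the threshold over the whole array, 3 higher and 2 lower with GW9662, was unstable: 0 and 1 with no level filter, 4 and 5 at a level of at least 7, 4 and 6 with median centring and also with repeated quantile normalization, 6 and 6 with trended robust moderation, 27 and 22 with array weights, and 0 and 0 with no moderation. With 1 array left out it was 0 higher and 0 to 2 lower. Without both arrays of positive score on the first principal component it was 0 and 0. Deviations of same-numbered arrays correlated at 0.29, -0.45 and -0.12, and only replicate 1 with GW9662 had its same-numbered array as closest partner. With 3 arrays per group, these values cannot exclude that the replicate numbers pair the arrays. The replicate block gave 0 and 0 calls, with 379 genes at an unadjusted p under 0.05 in limma against 543 without it. Members past the threshold numbered 0 in every setting except array weights, which gave 1, Trib3 at 0.56 (limma adjusted p = 0.0267). That setting put a weight of 5.74 on replicate 1 of Tel+LPS and of 0.37 to 1.37 on the other 5 arrays, and moved the contrast of effectors minus synthesis enzymes from 0.22 to 0.32. The contrast was 0.16 to 0.25 with 1 array left out and 0.024 with Ddit3 alone. Without 1 array, 0 members were past the threshold in either direction, 9 to 10 were positive (41.4% to 45.0% of all genes), and 5 to 7 had groups that did not overlap (6.69% to 8.79% of all genes, since removing an array makes separation easier). With median centring 4 did not overlap, without Shmt2 (4.71% of all genes). With repeated quantile normalization 6 did not overlap, Atf4 among them (6.21% of all genes). All 10 members were positive in both of these settings, but so were 48.2% and 50.6% of all genes, against 41.2% in the main fit. Over all alternatives the adjusted p of Trib3 lay between 0.0267 and 1.00. Signs turned in 2 members. Phgdh, which ran from -0.02 to 0.13 with 1 array left out, was negative without replicate 3 of Tel+LPS (-0.0197) and of Tel+GW+LPS (-0.0194). Psat1 was -0.0030 without both arrays of positive score on the first principal component. The cause of these turns was not tested. Differences of the size of most members (0.04 to 0.11) lie below the smallest simulated one, 0.25, of which 5 of 50 were called.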
